A study of Xenopus laevis with 115 samples.

Results

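Fertilised ectoderm was the baseline tissue of a study of nuclear transfer in Xenopus laevis, where embryos grown from an egg given a donor cell's nucleus are compared with embryos from in vitro fertilisation (IVF). The libraries described here are the untreated IVF ectoderm of the 3 experiments that also tested SGC-CBP30, an inhibitor of the bromodomains of the histone acetyltransferases p300 and CBP. They were chosen by sample title, which gives an experiment number and a library number, and there are 11 of the 115 samples in the series, with 4 libraries in experiment 1, 3 in experiment 2 and 4 in experiment 3. These embryos received neither a transferred nucleus nor an inhibitor, so they show how far experiments, and libraries of 1 experiment, differ without either.

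All groups were wild type. The fertilised ectoderm was taken at gastrula stage 11 with no treatment. It was set beside the ectoderm of stage 11 nuclear-transfer embryos whose donor nuclei came from embryos kept in DMSO (12 libraries), the same with donors kept in 40 µM SGC-CBP30 (11 libraries), and DMSO donor endoderm of neurula stage 18 embryos (6 libraries). The donors were IVF embryos exposed from stage 12 to stage 18. The labels do not say whether a library is 1 embryo or a pool, nor which parents, days, library preparations or sequencing runs belong to an experiment. These cannot be told apart from the experiment number, and p-values measure the spread between libraries, which may in part be technical.

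The animal cap is the ectoderm of the upper embryo, which goes on to form epidermis and neural tissue. At gastrula stages its RNA holds messages laid down in the egg by the mother together with messages made by the embryo since its own genome was switched on. Xenopus laevis also carries a doubled genome in which many genes exist as a pair of similar copies, so reads can be shared between near-identical targets.

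The deposited abundance tables give an expected count, the estimated number of reads, for each of 72076 target sequences, called transcripts here. Library totals were 12121719 to 17607689 expected counts in experiment 1, 10352221 to 14938376 in experiment 2 and 11561067 to 24611268 in experiment 3. The part of this depth in the results was not tested. The filter on low counts was passed by 26673 transcripts. No table used here links the targets to gene symbols. Each transcript is therefore named by its target identifier, with a gene identifier where another table of the series gives one. Ectoderm markers could not be looked up by symbol. The libraries were instead compared by transcripts that separated donor endoderm from nuclear-transfer ectoderm. Donor endoderm is also of a later stage, so tissue and stage differ together in these lists. The shares below show which of these kinds the fertilised libraries resemble. They cannot tell ectoderm from another tissue of the same stage. The 3616 transcripts at least 4-fold higher in donor endoderm (adjusted p under 0.05) held 3.7% to 5.71% of the counts of the fertilised libraries, against 3.29% to 6.66% in DMSO nuclear-transfer ectoderm and 25.6% to 37.7% in DMSO donor endoderm. The 3543 transcripts at least 4-fold higher in nuclear-transfer ectoderm held 9.24% to 12.8% of the counts of the fertilised libraries, 9.19% to 14.1% in DMSO nuclear-transfer ectoderm and 0.779% to 1.61% in donor endoderm. The last 2 ranges of each list come from the libraries that made the list.

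One library stood apart in its most abundant targets. In library 1 of experiment 3 the 10 most abundant targets took 18.7% of all expected counts, against 4.92% to 7.77% in the other 10 libraries. A single target of 4111 bases, XBmRNA22092, took 4.78% there and at most 0.376% elsewhere. Shares of transcripts called between experiments, and recurring shares, are also given without this library. Fragment size was also larger in experiment 3, while experiments 1 and 2 overlapped. The median difference between a target's length and its effective length, which rises with fragment size, was 189.5 to 198.4 bases in experiment 1, 171 to 193 bases in experiment 2 and 204.6 to 222.9 bases in experiment 3. Its part in the results was not tested.

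The experiment a library came from was the main axis of variation in fertilised ectoderm. Libraries were compared by the median absolute difference in log2 CPM (counts scaled to a common library size by edgeR's TMM method, prior count 2) over the transcripts tested. Within an experiment that distance averaged 0.264 ± 0.033 in experiment 1 (SD over 6 pairs of libraries), 0.36 ± 0.053 in experiment 2 (3 pairs) and 0.247 ± 0.023 in experiment 3 (6 pairs). Between experiments it averaged 0.494 ± 0.02 for experiments 1 and 2, 0.383 ± 0.029 for experiments 1 and 3, and 0.483 ± 0.04 for experiments 2 and 3. The mean over pairs from different experiments was 0.446 and that over pairs from the same experiment 0.276, a difference of 0.17. An exact permutation test over all 11550 ways to assign 11 libraries to groups of these sizes gave p = 0.000173 (one-sided), which is the smallest p this design can give. The ranges of single pairs overlapped. The most distant pair within experiment 2 differed by 0.421, and the closest pair of experiments 1 and 3 by 0.351.

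**Figure D1:**
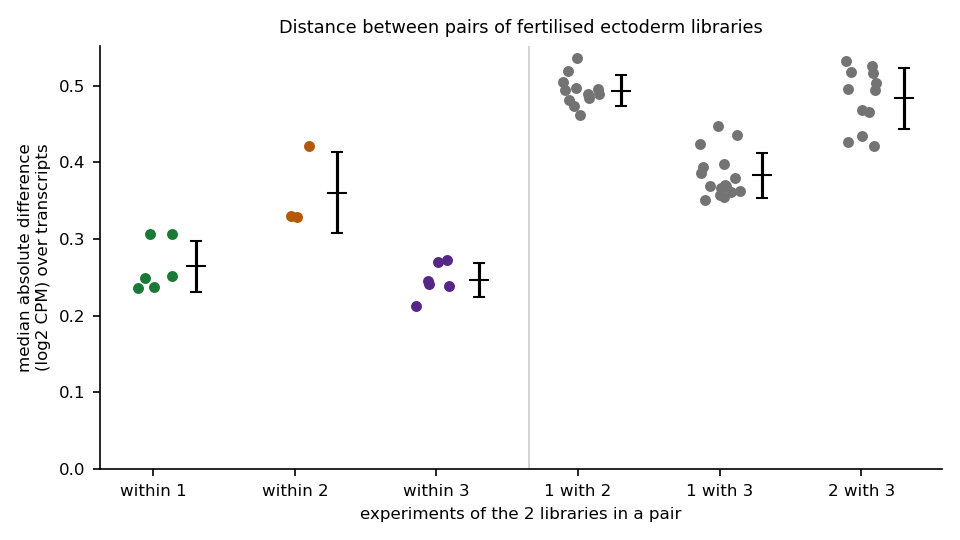
Median absolute difference in log2 CPM over transcripts for every pair of fertilised libraries, with pairs within an experiment on the left and between experiments on the right; points are pairs, and the bar beside them is the mean with its SD. Pairs within experiments 1 and 3 lie lowest, and pairs that include experiment 2 with another experiment lie highest.

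Rank correlations over transcripts were high throughout. Spearman's rho between libraries, over the 26673 transcripts, was 0.943 to 0.979 within an experiment and 0.906 to 0.951 between experiments. These values share the same transcripts and differ in depth, and are given as a description.

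Principal components of log2 CPM placed the 3 experiments apart. Component 1, with 30.1% of the variance, set experiment 2 (scores -104.7 to -83.5) apart from experiment 1 (3.8 to 33.5) and experiment 3 (20.9 to 66.6). Component 2, with 23.8%, put experiment 1 at 58.2 to 77.1, experiment 2 at -25.6 to -11.1 and experiment 3 at -62.4 to -40.7. The 3 ranges on component 2 do not overlap. Component 3, with 12.9%, instead split libraries of the same experiment. Library 3 of experiment 1 scored -48.1, library 1 of experiment 2 scored -53.2 and library 3 of experiment 3 scored -55, while library 2 of experiment 2 scored 77.1. The weights of the transcripts on these 3 components had Spearman's rho of -0.14, -0.09 and 0.13 with the donor-over-nuclear-transfer fold change over 25599 transcripts, and 0.11, 0 and -0.16 with transcript length, as a description.

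**Figure D2:**
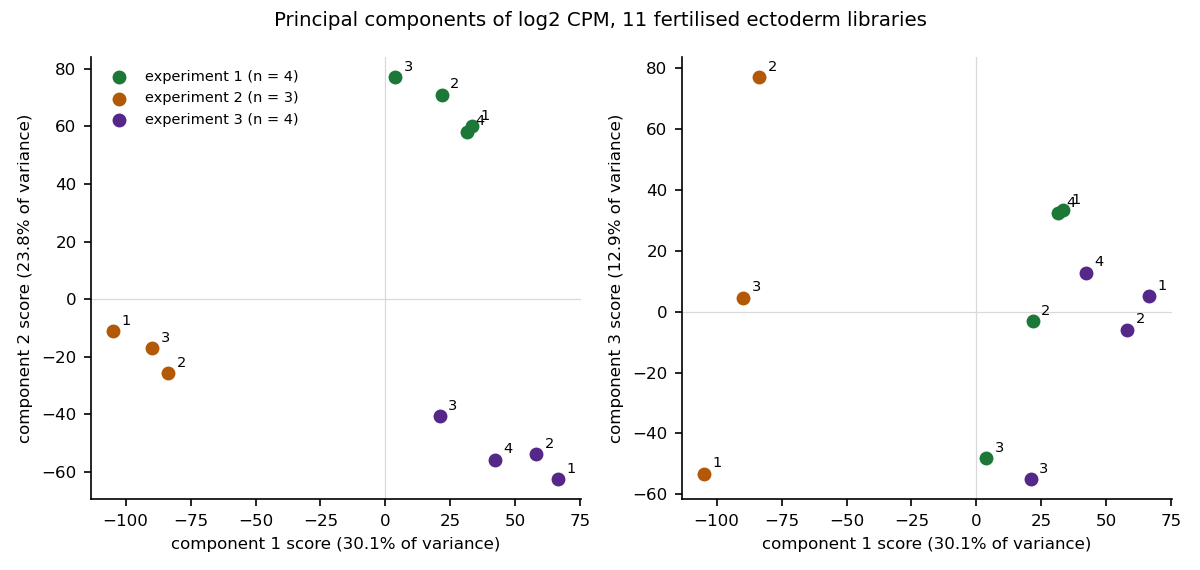
Scores of the 11 fertilised libraries on components 1 and 2 (left) and 1 and 3 (right) of log2 CPM, coloured by experiment and numbered by library. The experiments form 3 separate groups on the left, and component 3 spreads the libraries within each experiment.

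Seen one transcript at a time, the experiment accounted for a median of 48.4% of the variance in log2 CPM among the 11 libraries, with quartiles of 25% and 70.8%. For 48.2% of transcripts the share was over 50%, and for 1514 of them, 5.68%, it was over 90%. A share of this kind is above 0 also when experiments do not differ, because the experiment means carry the library noise.

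More than 1 transcript in 3 differed between the 3 experiments. edgeR's quasi-likelihood F test of any difference called 9551 of 26673 transcripts at an adjusted p under 0.05, which is 35.8% of those tested. Experiment 2 was the most distinct. Among the called transcripts the highest mean lay in experiment 1 for 3019, in experiment 2 for 3674 and in experiment 3 for 2858, and the lowest mean in 2964, 3728 and 2859 of them. In experiment 2, 2207 transcripts (8.27% of those tested) lay above every library of the other experiments and 2475 (9.28%) lay below. The corresponding counts were 1494 above (5.6%) and 1223 below (4.59%) for experiment 1, and 1329 above (4.98%) and 1239 below (4.65%) for experiment 3. Experiment 2 also has fewer libraries, which makes it easier for all of its values to lie outside those of the others.

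Experiment 1 over experiment 2 gave 6829 calls, or 25.6% of transcripts, with 3465 higher (13%) and 3364 lower (12.6%) in experiment 1. Of these calls, 2908 (10.9%) had an absolute log2 fold change of at least 1, a fold change of at least 2. Experiment 1 over experiment 3 gave 4258 calls, or 16%, with 2199 higher (8.24%) and 2059 lower (7.72%), and 1757 (6.59%) reached a log2 fold change of 1. Experiment 2 over experiment 3 gave 6646 calls, or 24.9%, with 3256 higher (12.2%) and 3390 lower (12.7%), and 2818 (10.6%) reached a log2 fold change of 1. The 3 contrasts share libraries, so these counts are not independent of each other. Without library 1 of experiment 3, experiment 1 over 3 had 6.43% higher and 5.75% lower, and experiment 2 over 3 9.36% and 9.62%. Without library 2 of experiment 3 instead, these shares were 6.13% and 5.35%, and 8.81% and 9.07%.

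Median differences were below 2-fold, both over all transcripts and among called ones. The median absolute log2 fold change over all transcripts tested was 0.409 for experiment 1 over 2, 0.296 for experiment 1 over 3 and 0.409 for experiment 2 over 3, and among called transcripts it was 0.88, 0.837 and 0.871. An absolute log2 fold change of at least 3 was reached by 474, 434 and 502 called transcripts in the same order of contrasts. The share of transcripts whose ranges did not overlap was 32.2% for experiments 1 and 2, 24.6% for experiments 1 and 3, and 33.6% for experiments 2 and 3. Some ranges stay apart without any difference, and more readily in the contrasts of experiment 2, which has fewer libraries.

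**Figure D3:**
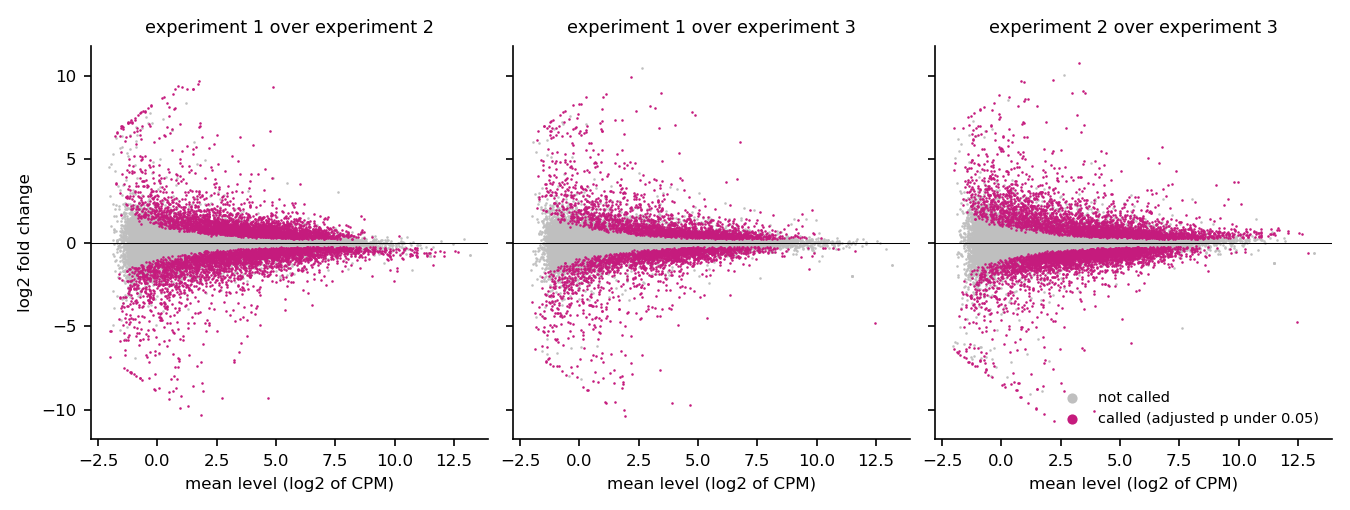
Log2 fold change of each of the 26673 transcripts against its mean level over the 11 fertilised libraries (log2 of CPM), for the 3 contrasts; called transcripts are coloured. Calls run through the whole range of levels, and the largest fold changes lie among transcripts of low and middle level.

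Calls rose with the level of a transcript while large fold changes became fewer. When transcripts were put into 4 groups of equal size by mean CPM, from lowest to highest, the share called for any difference was 24.3%, 32.2%, 42.6% and 44.2%. In the same order the share called with at least a 2-fold change between experiments 1 and 2 was 15.7%, 15.5%, 8.46% and 3.94%. The precision of a count also rises with its level. In 4 such groups by transcript length, the shortest had 29% called for any difference and the longer 3 groups 37.5%, 37.5% and 39.2%. Direction moved with length as well. The median log2 fold change of experiment 1 over 2 was -0.128 in the shortest group and 0.096 in the longest, and that of experiment 2 over 3 was 0.154 and -0.109. The fragment sizes given above overlap between experiments 1 and 2 and are larger in experiment 3, and their part in this shift was not tested.

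Libraries of the same experiment were close to each other, and experiment 2 was the most variable of the 3. The median SD of log2 CPM over transcripts was 0.255 in experiment 1 (n = 4), 0.317 in experiment 2 (n = 3) and 0.24 in experiment 3 (n = 4). The biological coefficient of variation, edgeR's estimate of the spread beyond counting noise, was 0.257, 0.301 and 0.25. The SD exceeded 1, which is a factor of 2, in 5.98%, 8.3% and 5.24% of transcripts. Spread fell with level. The median SD in the lowest of the 4 level groups was 0.518, 0.609 and 0.49 in experiments 1, 2 and 3, and in the highest group 0.133, 0.185 and 0.118.

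The spread within an experiment was set beside that of the other kinds of tissue. On the same transcripts the biological coefficient of variation was 0.25 to 0.301 in fertilised ectoderm, against 0.327 to 0.347 in DMSO nuclear-transfer ectoderm, 0.245 to 0.371 in SGC-CBP30 nuclear-transfer ectoderm and 0.286 to 0.465 in DMSO donor endoderm. Each range covers 3 experiments. The SGC-CBP30 nuclear-transfer ectoderm of experiment 1 had the value 0.245, below every fertilised group. With 2 to 5 libraries per group these values are a description, and the differences between kinds were not tested.

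The most stable transcripts set the lower end of this range. Among 1939 transcripts with a mean of at least 100 CPM, XBmRNA68325 had the smallest SD, with 134, 137, 135 and 144 CPM in experiment 1, 135, 144 and 138 CPM in experiment 2, and 132, 136, 133 and 135 CPM in experiment 3. Its SD on the log2 scale was 0.042, against a median of 0.212 over the 1939 transcripts. XBmRNA5703, of gene XBXL10_1g3149, followed with 113 ± 3.83 CPM over the 11 libraries (range 107 to 120) and an SD of 0.049. They were picked for their low spread, so their stability is a description.

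At the other end, some transcripts were present in 1 experiment and without a count in another. The pairwise named transcripts below had the largest fold changes among called transcripts with at least 5 CPM in the higher experiment and ranges that did not overlap, a rule that 4731 transcripts met for experiments 1 and 2, 2882 for experiments 1 and 3, and 4596 for experiments 2 and 3. Counts are expected counts rounded to whole numbers, and a transcript at 0 in all libraries of a group is given a fold bound from 3 counts over that group. The bounds and intervals cover counting error only.

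XBmRNA32232, of gene XBXL10_1g17476, was found almost exclusively in experiment 3. It had 0, 0, 0 and 0.166 CPM in experiment 1, 0, 0.0988 and 0 CPM in experiment 2, and 44.2, 36.5, 35.8 and 46.3 CPM in experiment 3. The groups of experiments 2 and 3 do not come near each other, and experiment 2 over 3 gave a log2 fold change of -10.09 (edgeR adjusted p = 1.28e-06). From 1 count against 3183, the level was 1360-fold lower in experiment 2, with a 95% counting interval of 244 to 53700. The same order held in DMSO nuclear-transfer ectoderm, which had at most 0.245 CPM in experiment 1, 0 in experiment 2 and 32.9 to 48 CPM in experiment 3. Donor endoderm was the other way round, with 1.91 and 3.56 CPM in experiment 1, 5.2 and 8.13 CPM in experiment 2, and 0 and 0 CPM in experiment 3 (adjusted p = 0.257 for experiment 2 over 3).

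XBmRNA5910, of gene XBXL10_1g3265, marked experiment 2. It had 0.339, 0.0774, 0.552 and 0.0554 CPM in experiment 1, 31, 38.6 and 34 CPM in experiment 2, and 0, 0, 0.0392 and 0 CPM in experiment 3. The log2 fold change of experiment 2 over 3 was 10.74 (edgeR adjusted p = 7.18e-07), from 1172 counts against 1, or 2750-fold with an interval of 493 to 108000. DMSO nuclear-transfer ectoderm of experiment 2 held 44.6 to 49.1 CPM, and that of experiments 1 and 3 at most 0.191 and 0.0665 CPM. In donor endoderm the transcript was instead highest in experiment 1, with 5.4 and 3.51 CPM, and had 0 CPM in both donor libraries of experiment 2. The donor libraries of experiment 3 had 0.0655 and 0.0908 CPM (edgeR adjusted p = 0.339 for experiment 2 over 3). Expected counts of XBmRNA5910 were whole numbers in 7 of the 11 fertilised libraries (tolerance 0.001), so at least some of its reads were shared with other targets.

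XBmRNA74291 and XBmRNA35971 were present in experiments 1 and 2 and at or near 0 in experiment 3. XBmRNA74291, of gene XBXL10_1g39413, had 17, 15.8, 17.9 and 15.8 CPM in experiment 1, 16.1, 19.6 and 17.1 CPM in experiment 2, and 0, 0, 0 and 0.0911 CPM in experiment 3. Experiment 1 over 3 was 662-fold (interval 183 to 5460; edgeR adjusted p = 1.2e-07). XBmRNA35971 had 6.58 to 8.9 CPM in experiment 1, 6.38 to 6.95 CPM in experiment 2 and 0 CPM in all 4 libraries of experiment 3. It was at least 198-fold higher in experiment 1 than in experiment 3 (adjusted p = 7.9e-07) and at least 177-fold higher in experiment 2 than in experiment 3 (adjusted p = 1.47e-06). Both transcripts ran in the same order in DMSO nuclear-transfer ectoderm, where experiment 3 held up to 0.0943 CPM of XBmRNA74291 and up to 2.04 CPM of XBmRNA35971. Donor endoderm had 0.318 and 0.054 CPM of XBmRNA74291 in experiment 1, and 2.68 and 5.68 CPM in experiment 3 (edgeR adjusted p = 0.271). For XBmRNA35971 the donor libraries had 0 and 0.863 CPM in experiment 1, and 2.49 and 1.64 CPM in experiment 3 (edgeR adjusted p = 0.482). Expected counts of XBmRNA74291 and XBmRNA35971 were whole numbers in 3 and 4 of the 11 fertilised libraries (tolerance 0.001), so where the transcripts were present at least some of their reads were shared with other targets.

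XBmRNA56753, XBmRNA44285 and XBmRNA24541 were further transcripts of experiment 3. XBmRNA56753 had 7.06 to 8.31 CPM in experiment 3, at most 0.0554 CPM in experiment 1 and 0 CPM in experiment 2, at least 85.4-fold lower in experiment 2 than in experiment 3 (edgeR adjusted p = 1.26e-05). XBmRNA44285, of gene XBXL10_1g23718, had 0 CPM in experiment 1, 0.499, 0 and 0.941 CPM in experiment 2, and 11.5, 9.71, 8.07 and 11.5 CPM in experiment 3. It was at least 214-fold lower in experiment 1 than in experiment 3 (adjusted p = 0.00014). XBmRNA24541, of gene XBXL10_1g12963, was graded rather than on or off. Its 4 libraries of experiment 1 had 0 CPM, those of experiment 2 had 1.7, 4.35 and 1.74 CPM, and those of experiment 3 had 8.4, 7.95, 7.91 and 8.11 CPM. The bound for experiment 1 against 3 was at least 174-fold lower (adjusted p = 2.47e-05), and the 3 ranges do not overlap. DMSO nuclear-transfer ectoderm repeated the grading, with 0 CPM, 1.37 to 2.12 CPM and 6.26 to 12.7 CPM in experiments 1, 2 and 3. Donor endoderm had 2.6 and 1.46 CPM of XBmRNA24541 in experiment 1, and 0 CPM in experiments 2 and 3. Experiment 1 over 3 was not called in the donors (edgeR adjusted p = 0.102).

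XBmRNA43151, of gene XBXL10_1g23166, was absent from the counts of experiment 2. It had 4.35, 9.91, 6.57 and 4.99 CPM in experiment 1, 0 CPM in the 3 libraries of experiment 2, and 2.58, 2.96, 3.57 and 2.42 CPM in experiment 3. Experiment 1 was at least 70.1-fold higher than experiment 2 (edgeR adjusted p = 3.32e-05). The contrast ran the same way in DMSO nuclear-transfer ectoderm (log2 fold change 7.36, adjusted p = 1.99e-05) and the opposite way in DMSO donor endoderm (log2 fold change -7.36, adjusted p = 0.035). The donor libraries had 0 and 0.054 CPM in experiment 1, and 6.58 and 5.26 CPM in experiment 2.

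XBXL10_1g43070_t, of gene XBXL10_1g43070, was confined among the fertilised libraries to experiment 2 but for 1 count. It had 0 CPM in the 4 libraries of experiment 1, 3.39, 8.5 and 9.62 CPM in experiment 2, and at most 0.0392 CPM in experiment 3. It was at least 161-fold lower in experiment 1 than in experiment 2 (edgeR adjusted p = 0.000107). In DMSO nuclear-transfer ectoderm 2 of the 3 libraries of experiment 2 held it, at 2.64 and 14.6 CPM, and the other had 0 CPM. Donor endoderm instead had 6.1 and 10.1 CPM in experiment 1, and 0.221 and 0.14 CPM in experiment 2 (edgeR adjusted p = 0.101). Expected counts of XBXL10_1g43070_t were whole numbers in 7 of the 11 fertilised libraries (tolerance 0.001), so at least some of its reads were shared with other targets.

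The remaining transcripts of the largest fold changes varied between libraries of 1 experiment. XBmRNA73315 had 0 CPM in experiment 1, 11.1, 8.4 and 9.77 CPM in experiment 2, and 0.191, 0.693, 2.7 and 6.65 CPM in experiment 3. It was at least 211-fold lower in experiment 1 than in experiment 2 (edgeR adjusted p = 0.00244). DMSO nuclear-transfer ectoderm had 0, 0.0783, 8 and 1.23 CPM in experiment 1 and 0, 2.34 and 0 CPM in experiment 2, and the contrast differed between the 2 kinds of ectoderm (edgeR adjusted p = 0.0239 for the difference). XBmRNA73311 had 11.5, 0.387, 0.614 and 9.76 CPM in experiment 1, 0 CPM in experiment 2, and 0.477, 8.69, 0.353 and 4.78 CPM in experiment 3. It was at least 68.7-fold higher in experiment 1 than in experiment 2 with an adjusted p of 0.0468, and the call was lost in 8 of 16 alternative fits, where the adjusted p reached 0.114. The test of any difference did not call it (adjusted p = 0.0821). For XBmRNA73311, DMSO nuclear-transfer ectoderm had 0.636, 9.39, 0 and 7.97 CPM in experiment 1, and 12.3, 6.07 and 7.22 CPM in experiment 2. Experiment 1 over 2 was not called there (log2 fold change -0.91, edgeR adjusted p = 0.621). Expected counts of these 2 transcripts were whole numbers in 2 and 0 of the 11 libraries (tolerance 0.001), so at least some of their reads were shared between targets.

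**Figure D4:**
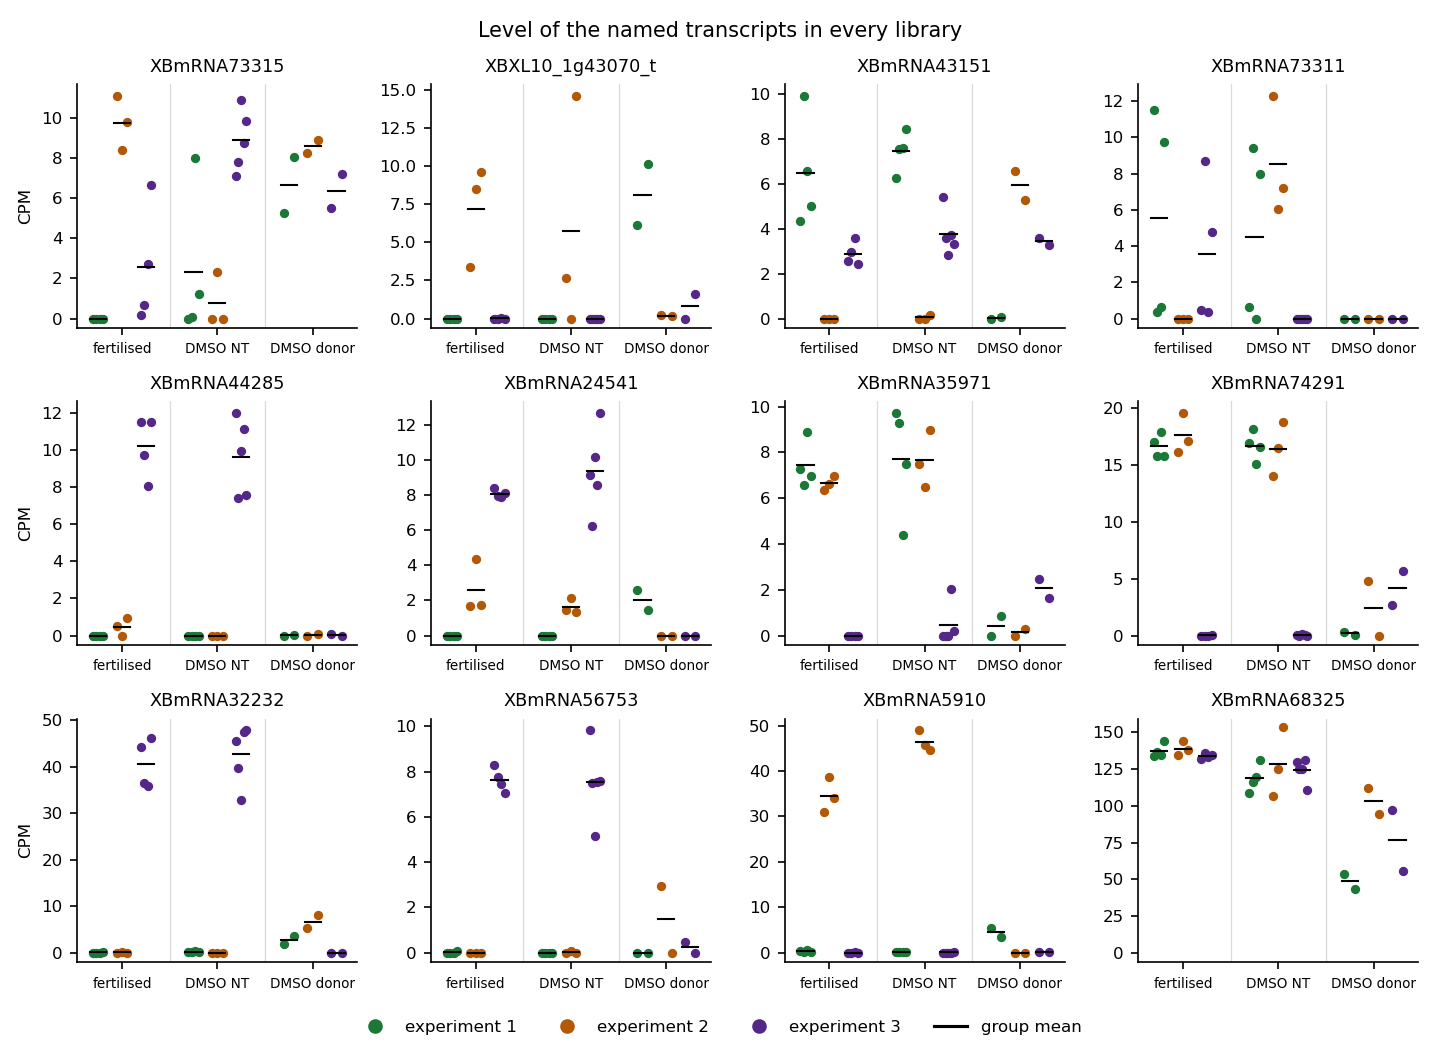
CPM of the 11 transcripts of largest fold change and of the stable XBmRNA68325 in every library, by kind of tissue and experiment; points are libraries and lines are group means. For most of them DMSO nuclear-transfer ectoderm follows the experiments of fertilised ectoderm, and donor endoderm does not.

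Transcripts of this on-and-off kind were counted across all pairs of experiments. A transcript with at least 1 CPM in every library of 1 experiment and a count of 0 in every library of another was found 97 times over the 6 ordered pairs. Reads can be shared between near-identical targets, so an expected count of 0 need not mean that the transcript was absent. How many of the 97 rest on shared reads was not counted. Present in experiment 1 and at 0 in experiment 2 were 22 transcripts, and 19 were the reverse. For experiments 1 and 3 the counts were 11 and 12, and for experiments 2 and 3 they were 15 and 18. In DMSO nuclear-transfer ectoderm, whose libraries had no part in this choice, 91 of the 97 passed the filter and 78 were called in the same direction, with 0 called in the opposite one. In DMSO donor endoderm 31 passed the filter, 0 were called in the same direction and 1 in the opposite direction by edgeR. For comparison, 14.2%, 10.8% and 14.8% of all transcripts tested in DMSO nuclear-transfer ectoderm were called in either direction for experiment 1 over 2, 1 over 3 and 2 over 3, and 2.73%, 0.872% and 0% in donor endoderm. The donor test of experiment 2 over 3 made 0 calls with edgeR from 2 libraries a group, with 4018 transcripts at an unadjusted p under 0.05.

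Many of the differences between experiments in fertilised ectoderm recurred in nuclear-transfer ectoderm of the same experiments, with the highest share between experiments 1 and 3. Of the fertilised calls with at least a 2-fold change that could be tested there, 844 of 2803 (30.1%) were called in the same direction at the same threshold in DMSO nuclear-transfer ectoderm for experiment 1 over 2. They were 40.9% of the nuclear-transfer calls. For experiment 1 over 3 it was 943 of 1690 (55.8%), or 61.6% of the nuclear-transfer calls, and for experiment 2 over 3 it was 845 of 2713 (31.1%), or 41.6%. Of all transcripts tested in DMSO nuclear-transfer ectoderm, 8.14%, 5.99% and 8.06% were called at this threshold in either direction. The direction was shared by 73.3%, 94.7% and 73.2% of the fertilised calls, and by 57.2%, 72.3% and 56.6% of all transcripts tested. The fertilised and nuclear-transfer contrasts have no library in common. Without library 1 of experiment 3 the recurring share was 60.2% for experiment 1 over 3 and 35.9% for experiment 2 over 3.

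The size of the differences was compared over the fertilised calls, whose selection on their fertilised values by itself lowers the ratio. The median ratio of the nuclear-transfer to the fertilised log2 fold change was 0.45 for experiment 1 over 2, 0.82 for experiment 1 over 3 and 0.41 for experiment 2 over 3. Spearman's rho of the fold changes over 26185 transcripts was 0.25, 0.56 and 0.22, a description over transcripts that are not independent. Of the fertilised calls with an absolute log2 fold change of at least 3, 65.8%, 81% and 66.6% recurred. Nuclear-transfer ectoderm from donors kept in SGC-CBP30 gave recurring shares of 29.1%, 47.3% and 31.1%, with 83.2%, 92.6% and 80.6% in the same direction, against 65.4%, 70% and 62.7% of all transcripts tested. At this threshold 5.6%, 5.09% and 7.09% of all transcripts tested in those libraries were called.

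Few of these calls were made in donor endoderm. Of the fertilised calls tested in DMSO donor endoderm, 31 of 2252 (1.38%) were called in the same direction for experiment 1 over 2 and 40 in the opposite one, while 2.72% of all transcripts tested there were called. For experiment 1 over 3 it was 4 of 1245 in the same direction and 14 in the opposite one, with 0.872% of all transcripts called, and for experiment 2 over 3 it was 0 of 2140, with 0% of all transcripts called. The direction was shared by 46.9%, 41.3% and 46% of the fertilised calls for experiment 1 over 2, 1 over 3 and 2 over 3, against 48.2%, 47.9% and 46.4% of all transcripts tested. Of fertilised calls with an absolute log2 fold change of at least 3, 5 of 234, 0 of 212 and 0 of 239 recurred. The donor contrast ran in the same direction for 50%, 34% and 41% of these calls. The donor fit of all 3 experiments, on its own transcripts, had a biological coefficient of variation of 0.469. With that spread and 2 donor libraries an experiment, small differences could not be detected in donors.

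**Figure D5:**
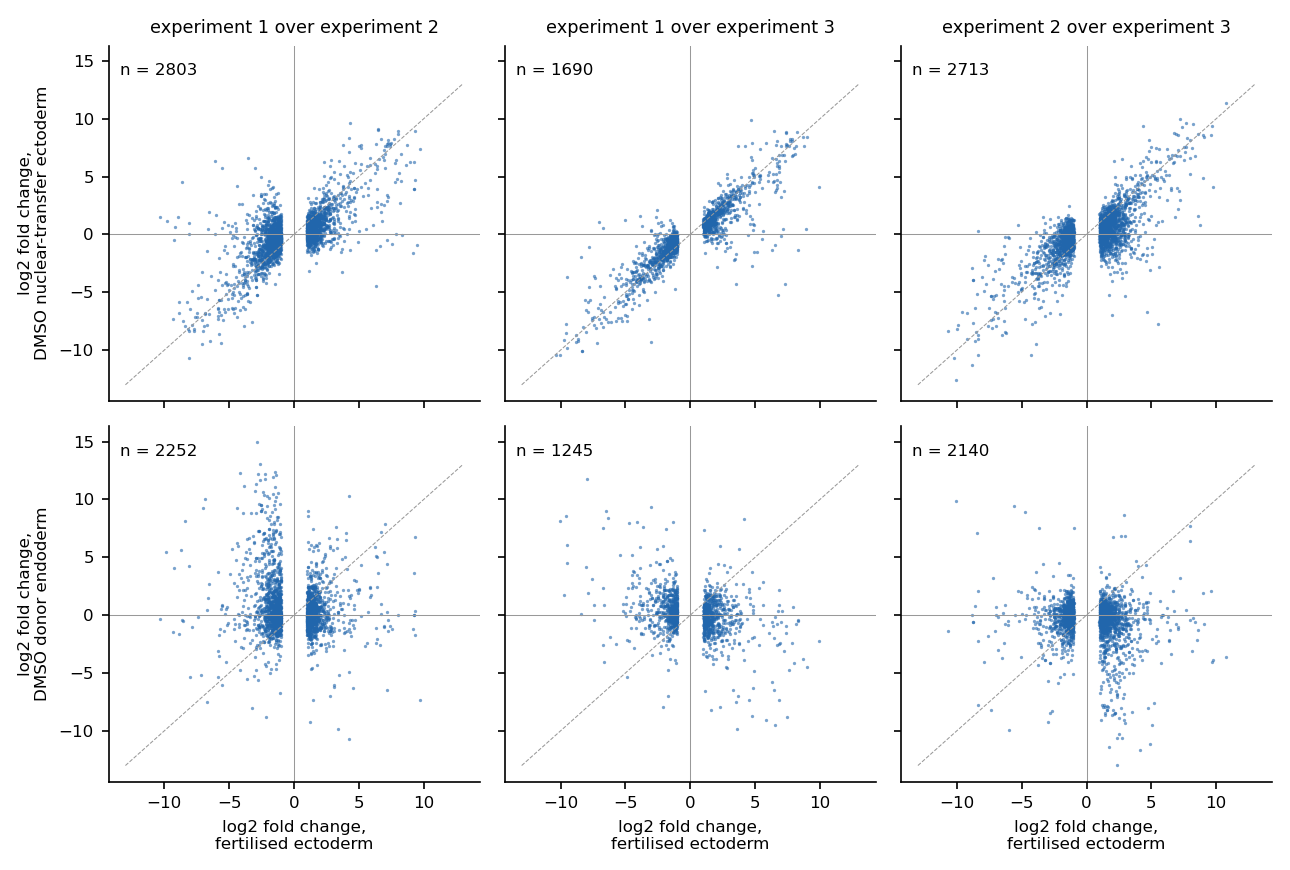
Log2 fold change in DMSO nuclear-transfer ectoderm (top) and DMSO donor endoderm (bottom) against that in fertilised ectoderm, for fertilised calls with an absolute log2 fold change of at least 1; the dashed line marks equal values. The median ratio of the nuclear-transfer to the fertilised value is 0.82 for experiment 1 over 3, near the line, and 0.45 and 0.41 for experiment 1 over 2 and 2 over 3, while in the donors it is between -0.16 and -0.05.

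The difference between fertilised and nuclear-transfer contrasts was tested directly in 1 fit of both kinds, over 29562 transcripts. Experiment 1 over 2 differed between fertilised and DMSO nuclear-transfer ectoderm in 2431 transcripts (8.22%, edgeR adjusted p under 0.05), experiment 1 over 3 in 23 (0.0778%) and experiment 2 over 3 in 2568 (8.69%). At an unadjusted p under 0.05 the counts were 7545, 1802 and 7767. Among the fertilised calls of at least 2-fold, 696 of 2908 (23.9%), 12 of 1757 (0.683%) and 674 of 2818 (23.9%) had such a difference. It was in the direction of a larger fertilised contrast in 681, 11 and 658 of them. In 496, 9 and 478 of them the nuclear-transfer contrast ran the opposite way. These calls were chosen on fertilised values that the test uses again, which by itself raises these shares and favours that direction. Both contrasts with many differences involve experiment 2. These counts depend on single libraries. Without DMSO nuclear-transfer library 1 of experiment 2 they were 683 for experiment 1 over 2 and 746 for experiment 2 over 3. Without nuclear-transfer library 1 of experiment 1 the count for experiment 1 over 2 was 4627. It was 1224 and 1421 without fertilised libraries 2 and 3 of experiment 1, 997 without fertilised library 3 of experiment 2, and 1031 and 1048 without nuclear-transfer libraries 3 and 4 of experiment 1. The count for experiment 2 over 3 was 1027 without fertilised library 3 of experiment 2, and 1205 and 1155 without fertilised libraries 1 and 2 of experiment 3. The count for experiment 1 over 3 was 11 to 15 without any one of 9 libraries, which were fertilised libraries 1 and 3 of experiment 1 and 1, 2 and 4 of experiment 3, and nuclear-transfer libraries 2 and 3 of experiment 1 and 2 and 3 of experiment 3. It was 51 without nuclear-transfer library 4 of experiment 3.

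Among transcripts high in donor endoderm, more were called higher than lower in the fertilised ectoderm of experiment 2, against both other experiments. The list of 3616 transcripts at least 4-fold higher in donor endoderm had 2482 members tested in fertilised ectoderm, and it was made from other libraries. In experiment 1 over 2, 161 of them were called higher (6.49%) and 476 lower (19.2%), with a median log2 fold change of -0.29, where all transcripts had 13% higher, 12.6% lower and a median of -0.006. In experiment 2 over 3, 435 were called higher (17.5%) and 135 lower (5.44%), with a median of 0.262, where all transcripts had 12.2%, 12.7% and a median of -0.001. Without library 1 of experiment 3 these shares were 13.5% and 4.09%, where all transcripts had 9.36% and 9.62%. With each fertilised library left out in turn, the higher share ran from 12% to 18.3%, and that of all transcripts from 8.81% to 12.6%. The lower share in experiment 1 over 2 ran from 13.1% to 19.6%, and that of all transcripts from 9.32% to 12.5%. In experiment 1 over 3 the shares were 6.49% higher and 5.8% lower, with a median of -0.043, where all transcripts had 8.24% and 7.72%. Over all transcripts, from lowest to highest level group, the median of experiment 1 over 2 was -0.101, 0.017, 0.052 and -0.02. That of experiment 2 over 3 was 0.068, -0.046, -0.075 and 0.052. The part of level and length in the shift of this list was not tested. The share of counts in this list was 4.66%, 4.46%, 4.32% and 4.74% in the libraries of experiment 1, 5.02%, 5.68% and 5.71% in experiment 2, and 3.7%, 4.36%, 4.64% and 5.11% in experiment 3. Experiments 1 and 2 do not overlap, and library 4 of experiment 3 lies within the range of experiment 2. Nuclear-transfer ectoderm did not repeat this order. With DMSO donors, whose libraries helped make the list, the share was 3.49% to 5.23%, 3.29% to 3.65% and 3.8% to 6.66% in experiments 1, 2 and 3. With SGC-CBP30 donors it was 3.84% to 4.46%, 3.6% to 5.11% and 4.22% to 4.92%.

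For transcripts high in nuclear-transfer ectoderm the counts ran the other way. Of the 3543, 3421 were tested. In experiment 1 over 2, 639 were called higher (18.7%) and 356 lower (10.4%), with a median log2 fold change of 0.142, where all transcripts had 13% and 12.6%. In experiment 2 over 3, 354 were called higher (10.3%) and 662 lower (19.4%), with a median of -0.14, where all transcripts had 12.2% and 12.7%. Without library 1 of experiment 3 these shares were 8.04% and 14.9%, where all transcripts had 9.36% and 9.62%. In experiment 1 over 3 the shares were 9.24% higher and 9.59% lower, with a median of 0.007, against 8.24% and 7.72% of all transcripts. The share of counts did not follow, with 9.55% to 10.6% in experiment 1, 9.73% to 10.9% in experiment 2 and 9.24% to 12.8% in experiment 3, where the highest value belongs to library 1. When each fertilised library was left out in turn, the medians of experiment 1 over 2 stayed between -0.302 and -0.248 for the donor-high list and between 0.086 and 0.176 for the other. Those of experiment 2 over 3 stayed between 0.208 and 0.304, and between -0.18 and -0.111. The lower share of the donor-high list in experiment 1 over 3 was 3.79% and 3.85% without libraries 2 and 3 of experiment 1, and 3.78% and 3.58% without libraries 2 and 4 of experiment 3. The lower share of all transcripts in the same 4 fits was 5.37%, 6.07%, 5.35% and 5.94%. In experiment 2 over 3 the lower share of the list was 3.61% without library 2 of experiment 3, where that of all transcripts was 9.07%. The median of the nuclear-transfer-high list in experiment 1 over 3 turned to -0.05 without library 3 of experiment 1 and to -0.027 without library 4 of experiment 3. In both lists tissue and stage differ together. In bulk tissue, fewer cells of a type and less RNA per cell cannot be told apart.

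A run of 13 neighbouring identifiers, XBXL10_1g44445_t to XBXL10_1g44457_t, has exactly the lengths of the 13 mitochondrial protein genes in the RefSeq table. It was looked at after its levels were seen, and the match is by length alone. Their summed deposited TPM was 21175 to 24154 in experiment 1, 11714 to 27292 in experiment 2 and 25205 to 40448 in experiment 3. Experiment 3 lies above experiment 1 in every library and overlaps experiment 2. No member was called by edgeR for experiment 1 over 2, 2 of 13 were called lower for experiment 1 over 3, with a median log2 fold change of -0.475 over the 13, and 3 of 13 were called lower for experiment 2 over 3, with a median of -0.581. Of all transcripts tested, 7.72% were called lower for experiment 1 over 3 and 12.7% for experiment 2 over 3.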

How the data were processed

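Libraries were made from 400 ng of ectoderm RNA by poly(A) selection with a directional kit and read as pairs of 50 bp, per the labels' protocols. The authors deposited 1 abundance table per library with expected counts and TPM per target, together with other values, the target length and effective length. Kallisto 0.48, R 4.3.1 and DESeq2 1.40.2 are listed in the submitters' processing notes, with no step named. The genome build and annotation are not given in the sources used here. Another 4 abundance files, linked to no sample record, stayed out.

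Expected counts were rounded and tested with edgeR 4.0.16 under R 4.3.3 (filterByExpr, TMM scaling, quasi-likelihood F test, two-sided, Benjamini-Hochberg adjustment over all transcripts tested, calls at an adjusted p under 0.05). The 11 fertilised libraries entered 1 fit for the 3 contrasts and the test of any difference. Other kinds of tissue had fits of their own, and the difference between fertilised and DMSO nuclear-transfer contrasts came from a fit of both. The range of depth in each experiment is given with the results. Members and lists were chosen with earlier results of these data known. Named transcripts were the 2 highest and 2 lowest fold changes of each contrast among called transcripts with at least 5 CPM in the higher experiment and ranges that did not overlap, and the 2 transcripts of smallest SD among those with at least 100 CPM. Of the 26673 tested identifiers, 14985 have a gene identifier in other tables of the series and 0 matched the RefSeq table, so no symbol or sequence is printed and marker genes could not be scored.

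The procedure was tested on simulated data. With 25847 genes in the fit, it recovered 42% of 2-fold and 80% of 4-fold changes in the test of any difference, with 6 calls among unchanged genes. The simulation changed 100 transcripts at each fold, all in experiment 2 and with a mean of at least 1 CPM. All others were equal between experiments. Experiment 1 over 3 held no change and gave 0 calls. Recovery at lower levels, or with as many differences as in these data, was not tested. Counts of library pairs within an experiment differed beyond sampling noise in every case (chi-square per degree of freedom 11.3 to 113.4), so each library was counted once. Alternatives were DESeq2 1.42.0, its size factors, other filters, robust dispersion, pairs of experiments alone, a block on library number and each library left out. Leaving out libraries for the recurring shares and the tissue lists was added after seeing the data. Summing counts per gene was not run, because the tables that pair identifiers with genes list 1 transcript per gene.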

Additional observations from a re-analysis of the deposited data

Results flagged for a closer look

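Library 1 of fertilised experiment 3 lay far from the other 3 libraries of its experiment in the share of counts held by its 10 most abundant targets, at 18.7% against 4.92% to 6.04%. It was also far from them in the share of XBmRNA22092, at 4.78% against 0.0798% to 0.376%. In experiment 1, library 1 had the shortest fragments by the difference between length and effective length, at 189.5 bases against 197 to 198.4 bases. Library 2 of experiment 1 had the fewest transcripts with at least 1 count, 36536 against 37846 to 37899, and the smallest total of that experiment. In all, 32 sets of values were examined in this way, each a measure in the 4 libraries of experiment 1 or of experiment 3, and 4 had such a library. Chance gives about 1 in 20 sets, and the sets share 2 groups of libraries, so they are not independent. One set is XBmRNA22092, named above for its level in library 1 of experiment 3, and others are transcripts picked on these values. The 4 can therefore not be weighed against that rate.

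The contrast between experiments differed between fertilised and DMSO nuclear-transfer ectoderm, by edgeR's test of the difference itself, in 2431 transcripts for experiment 1 over 2, in 23 for experiment 1 over 3 and in 2568 for experiment 2 over 3. Among the named transcripts this held for XBmRNA73315, where the fertilised minus nuclear-transfer difference in the log2 fold change of experiment 1 over 2 was -11.92 (adjusted p = 0.0239). That transcript had a count of 0 in the fertilised libraries of experiment 1, so the size of this value depends on the prior count.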

How the results depend on the processing

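None of the distances and named contrasts changed direction in the alternatives run. The near-even split of calls did turn: experiment 1 over 2 had 3465 higher and 3364 lower, but 3346 and 3468 with DESeq2's size factors and 3665 and 3854 with DESeq2. Experiment 2 over 3 had 3256 and 3390, but 3368 and 3257, and 3812 and 3599. Without library 3 of experiment 2 both splits also turned. The calls between experiments in fertilised ectoderm stayed within 1.5 times of the reported counts in every alternative. With 1 library left out the test of any difference gave 7770 to 9453 calls, and the contrasts of experiment 1 over 2, 1 over 3 and 2 over 3 gave 5118 to 6533, 3008 to 4744 and 4684 to 6731. DESeq2 gave 10875 calls for any difference, and requiring 10 counts in every library gave 7928. The distance between experiments minus that within stayed at 0.144 to 0.176, each with the smallest p its exact permutation test allows. Of the 12 named contrasts, 11 kept their call in 17 alternatives each. XBmRNA73311 lost it in 8 of 16. The causes of the following moves were not tested.

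With a filter of 10 counts in every library the spread within experiments 1, 2 and 3 was 0.21, 0.287 and 0.19. Leaving out 1 library gave 0.329 to 0.421 for experiment 2, the highest without library 3. The test of the difference between fertilised and nuclear-transfer ectoderm gave 1319 (experiment 1 over 2) and 1481 (experiment 2 over 3) without a filter on low counts. For experiment 1 over 3 it gave 138 with DESeq2 and 8 with 10 counts in every library. With 1 library left out, the 3 contrasts gave 683 to 4627, 11 to 51 and 746 to 3407. Calls in DMSO nuclear-transfer ectoderm, 4024, 3077 and 4197, ranged over 2295 to 5886, 1965 to 3349 and 2480 to 4790. The lowest came without library 1 of experiment 2, library 2 of experiment 1 and library 1 of experiment 2, for the contrasts in that order. For experiment 1 over 2 they were also 2409, 2497 and 2596 without libraries 2, 3 and 4 of experiment 1, and 2678 without library 2 of experiment 2. The recurring shares ran from 29.5% to 33.5%, 52.4% to 61.7% and 27.3% to 36.6%.

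Whether library numbers pair libraries across experiments was described and not tested. Same-numbered libraries had correlations of their deviations from -0.14 to 0.41, and 5 of 11 correlated best with their own number. A fit with the library number as a block gave 8687 calls for any difference, and 6259, 3852 and 6104 for the 3 contrasts. A count near the filter carries a large counting error at these depths.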
